A study of Mus musculus with 157 samples.

Results

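The mRNAs of 10 genes that encode elongation factors, cytoplasmic poly(A) binding proteins and other products of the TOP class were followed along sucrose gradients of mouse B cells: Eef1a1, Eef1b2, Eef1d, Eef1g, Eef2, Pabpc1, Pabpc4, Tpt1, Gnb2l1 (now named Rack1) and Npm1. They were chosen by name, as the rows of the count table that carry one of these symbols, and they make up 10 of the 19600 genes in that table. The cells were splenic B cells of C57BL/6Babr mice grown with LPS, a mitogen, for 48 h (LPS), or for 48 h and then with etoposide, which traps topoisomerase II on broken DNA, for 4 h at 20 µM (LPS+ET). For LPS+ET+KU, the compound KU55933, an inhibitor of the DNA damage kinase ATM, was added at 10 µM after 47 h of LPS, and the same etoposide treatment followed 1 h later. All 3 groups therefore carried LPS at 10 µg/ml, both etoposide groups share the damage, and KU55933 without etoposide was not among the groups. There were 4 gradients a group, each read out as 13 libraries of mRNA 3′ ends, 1 for every fraction from 4 to 16: monosomes in fractions 4 to 7, light polysomes in 8 to 10 and heavy polysomes in 11 to 16. The column names carry 4 tags, LUL15 to LUL18, each on 1 gradient of every group. They do not say what the tag stands for. It is called the pool here, and a gradient is named by its group and pool.

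TOP mRNAs begin with a cytosine followed by a run of pyrimidines, the 5′ terminal oligopyrimidine tract, and most of them encode ribosomal proteins and the factors that work with the ribosome. Their translation is switched as a block: when mTORC1 is active they are loaded with ribosomes, and when it is not they move towards lighter fractions, in part through binding of LARP1 to the tract and through the 4E-BP proteins. In B cells, mitogens switch on growth and with it the demand for this machinery. The position of an mRNA in a gradient follows how many ribosomes it carries, and a short coding sequence has room for few.

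To show the feature that names the class, the 30 bases around the annotated start of 5 members are printed from RefSeq (GRCm38.p6), 10 bases before the start and 20 from it on. Capitals mark a C followed by at least 4 bases that are each C or T, where such a run begins within 5 bases of the start, and they run from the qualifying C nearest to the start, so that C or T bases just before it stay in lower case.

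Gnb2l1 (Rack1), chr11:48800350-48800379, plus strand: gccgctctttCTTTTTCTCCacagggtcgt

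Eef1a1, chr9:78481705-78481734, minus strand: ctccgccctCTTCCCgagggtgggggagaa

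Eef2, chr10:81176621-81176650, plus strand: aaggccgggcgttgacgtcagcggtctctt

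Eef1b2, chr1:63176821-63176850, plus strand: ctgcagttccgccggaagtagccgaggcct

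Tpt1, chr14:75845246-75845275, plus strand: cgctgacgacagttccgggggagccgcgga

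Of the 10 members, 6 had an entry in the RefSeq table used here (the 5 above and Pabpc4), and Eef1d, Eef1g, Npm1 and Pabpc1 had none. In Gnb2l1 the marked 10 bases begin exactly at the annotated start. In Eef1a1 the marked 6 bases begin 1 base before it. In both, the bases just before the marked ones are C or T as well, so the pyrimidine stretch of the genome is longer than the part in capitals. In the other 4 no such run began within 5 bases of the annotated start, and in Eef2 one lies only at the end of the printed window. This says nothing more about these mRNAs, since an annotated start is often not the base at which most transcripts begin. Of 32851 annotated mouse starts, 2.51% had the run exactly at the start and 18.3% within 5 bases of it; for ribosomal protein genes the shares were 18.1% and 41.7%.

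The site at which a member was counted decides what its row measures, so the positions were compared with the annotation (GENCODE M21, GRCm38). Eef1b2, the nucleotide exchange factor of the elongation complex, was counted at 1 site at chr1:63179670, in the 3′ untranslated exon and 14 bases from an annotated transcript end. Gnb2l1, a WD-repeat scaffold on the small ribosomal subunit, was counted at 1 site at chr11:48806088, exactly at an annotated end. Eef2, the translocase of elongation, had 91.1% of its counts at chr10:81182496, 2 bases from an end. Pabpc1, the main cytoplasmic poly(A) binding protein, was counted at chr15:36595665, 4 bases from an end. Eef1d, a second exchange factor subunit, had 88.6% at chr15:75895488, exactly at an end, and Eef1g, the subunit that anchors the exchange complex, had 93.5% at chr19:8978182, 297 bases from the nearest annotated end, and 6.48% exactly at that end. Npm1, the nucleolar histone chaperone nucleophosmin, was split between sites at chr11:33154933 (50.9%) and chr11:33152498 (49.1%), which lie 6 and 12 bases from annotated ends.

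For 3 members the row does not stand for the mRNA alone. Eef1a1, the GTPase that brings aminoacyl-tRNA to the ribosome and one of the most abundant mRNAs of a growing cell, had only 463 counts over all libraries, between 13 and 69 per gradient, at 8 sites, the closest of them 126 bases from an annotated end. The pseudogene Gm13456, 98.6% identical to it over 1317 bases, had 73433 counts, and the Eef1a1 row held 0.572% of the counts on itself and 3 pseudogene copies. Tpt1, a growth-associated protein also known as TCTP, had 3469 counts against 251230 for its pseudogene Tpt1-ps3, which is identical to it over 519 bases, and the Tpt1 row held 1.35% of the summed counts. Reads of these mRNAs and of their copies cannot be told apart in these rows, so for Eef1a1 and Tpt1 the values with the pseudogene rows added are given beside the values of the row. In Pabpc4, the second cytoplasmic poly(A) binding protein here, 85.4% of the counts fell at chr4:123282887, in an untranslated exon of the annotated gene, 24 bases before the RefSeq start and 3875 bases from the nearest annotated end. The window from 9 bases before that site to 20 after it is printed because it shows what lies there, with the 20 bases after the site in capitals, 15 of which are A.

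Pabpc4 counted site, chr4:123282878-123282907, plus strand: gcctcaaaaaCCTTAAAAAAAAAAAAAAGA

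The Pabpc4 values below are therefore for the most part values of that site. The remaining counts fell at 2 sites, 7.98% at 3 bases and 6.67% at 73 bases from an annotated end. Eef1d shares 277 identical bases with the neighbouring gene Naprt1, which had 1294 counts of its own.

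The 12 gradients held between 6404957 and 21449781 counts, and single fraction libraries between 14724 and 4170688. Members other than Eef1a1 had between 109 (Tpt1) and 189069 (Eef2) counts per gradient. The LPS+ET gradient of pool LUL16 stood apart, with 30.4% of its counts in heavy polysomes where the other 11 had 37.6 to 68.2%, so results that rest on it are given without it as well. Every library was made from RNA at equal concentration, so CPM, the counts of a gene scaled to a fixed library total, give the share of an mRNA within a fraction and not how much RNA the fraction held. All 8 B cell markers were present, with summed CPM of 31236 to 133225 per gradient, while 8 T cell markers summed to 88.3 to 376 (Cd4 and Trac at 0), 8 myeloid markers to 53.4 to 224 (Adgre1 at 0) and 6 erythroid markers to 0 to 1.24 (all 4 haemoglobin genes at 0). In such bulk samples fewer cells of a type and less RNA per cell cannot be told apart.

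The level of a member on ribosomes was taken from its counts summed over fractions 4 to 16 of a gradient. The libraries read mRNA 3′ ends, so these CPM were compared between genes without a correction for length. The 3 rows named above are an exception. Whether 1 count stands for 1 molecule was not tested. The CPM do depend on how deeply the fractions in which a gene lies were read. With equal weight per fraction the LPS mean of Eef1b2 was 2604 CPM in place of 1931 CPM, and that of Eef1d 176 in place of 183 CPM. Eef2 was highest, at 5456, 4686, 6277 and 4890 CPM in the LPS gradients of pools LUL15 to LUL18. Eef1b2 (1607 to 2275 CPM) and Gnb2l1 (1847 to 2115 CPM) followed and overlapped each other. Npm1 came next at 887 to 1015 CPM. Eef1g (228 to 356 CPM) and Eef1d (136 to 207 CPM) did not overlap in LPS, although they are subunits of the same complex. Pabpc1 lay at 53.6 to 112 CPM and overlapped Pabpc4 at 23.2 to 79.9 CPM, which in turn overlapped Tpt1 at 13.3 to 33.1 CPM. The Eef1a1 row gave 1.45 to 2.98 CPM, against 381 to 529 CPM for its copy Gm13456. The Tpt1 copy Tpt1-ps3 had 1203 to 1749 CPM, with a mean of 1375 CPM between those of Npm1 and Gnb2l1.

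**Figure D1:**
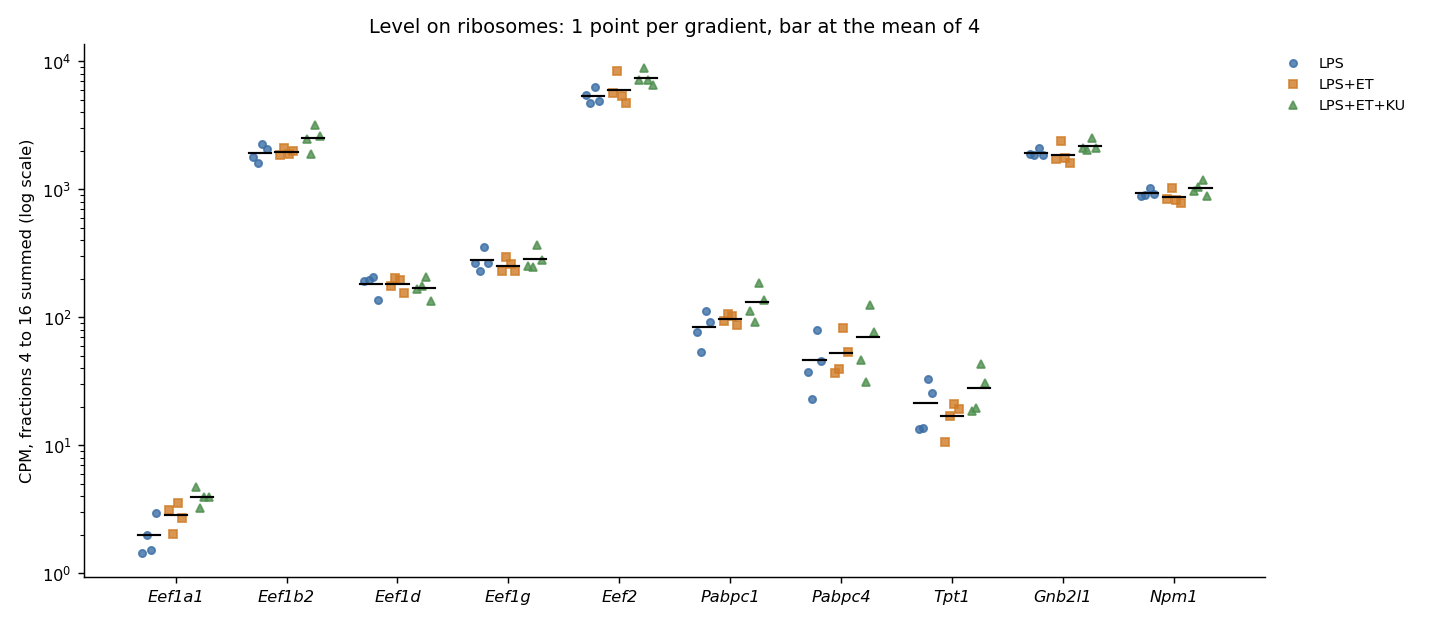
Level of the 10 members on ribosomes, as CPM of the summed fractions 4 to 16 on a log axis, with 1 point for each of 4 gradients per group and a bar at their mean. Levels run from Eef2, at 4686 to 8814 CPM, down to the Eef1a1 row, at 1.45 to 4.71 CPM. LPS lies below LPS+ET+KU without overlap in Eef2 (4686 to 6277 against 6479 to 8814 CPM). The same holds for the Eef1a1 row (1.45 to 2.98 against 3.22 to 4.71 CPM). In both, the points of LPS+ET overlap those of the other groups.

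Whether damage or ATM inhibition changed the share of these mRNAs among those on ribosomes was asked with edgeR's quasi-likelihood test. It was run on the summed counts (12755 genes tested, call at an adjusted p under 0.01). The test is relative to the other mRNAs, so a change in amount shared by all of them could not appear. After etoposide none of the 10 members was called, while 12.7% of all genes were. Eef2 measured 5635, 8323, 5314 and 4719 CPM in the LPS+ET gradients of pools LUL15 to LUL18, and the highest of these is the gradient that stood apart. Its log2 fold change was 0.06 ± 0.21 (SE; adjusted p = 0.867 by edgeR), and −0.16 without that gradient. Npm1 went from 928 ± 59 to 870 ± 109 CPM (SD, n = 4), and Gnb2l1 from 1925 ± 127 to 1864 ± 351 CPM. The 10 log2 fold changes lay between −0.43 (Tpt1) and 0.41 (Eef1a1), with a median of −0.10 where all genes had 0.03, and with the copies added the values of these 2 rows were both −0.01. At an unadjusted p under 0.05 there was no member, against 34.4% of all genes, and none was called by DESeq2. With pool as a block, which raised the share of all genes called to 26.7%, again no member was called.

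With KU55933 before etoposide the values were higher than with etoposide alone for 9 of the 10 members, but none of these differences was called (edgeR; 0.455% of all genes called, 6.36% with pool as a block, members 0 in both). Eef1b2 had 1867, 2084, 1875 and 1980 CPM after etoposide alone and 2459, 1874, 3153 and 2615 CPM after the inhibitor and etoposide, in the order of pools LUL15 to LUL18. The 2 groups overlapped in this member through pool LUL16, where the order was the opposite. Its log2 fold change was 0.37 ± 0.20 (adjusted p = 0.391), and those of the 10 members ran from −0.10 (Eef1d) to 0.73 (Tpt1), with a median of 0.33 against 0.04 for all genes. With each fraction given equal weight, the values of Eef1g (−0.06) and Pabpc4 (−0.13) turned. The size of other differences depended on this weighting too. For Eef1b2 the means without and with the inhibitor were 1952 and 2525 CPM in the summed counts, and 2512 and 2587 CPM with equal weight. For Eef2 they were 5998 and 7365 CPM in the summed counts, and 7008 and 7278 CPM with equal weight. Unadjusted p-values under 0.05 were absent among the members, and none was called by DESeq2.

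Set against LPS alone, LPS+ET+KU gave log2 fold changes of −0.21 (Eef1d) to 0.85 (Eef1a1), with a median of 0.29 against 0.09 for all genes. No member was called by edgeR or DESeq2, where 10.7% of all genes were called (28.1% with pool as a block, members again 0). Eef1a1 and Pabpc1 had unadjusted p-values under 0.05 in edgeR. Eef1a1 was at 0.85 ± 0.29 (adjusted p = 0.0502), and at 0.17 ± 0.18 with its copies added. Eef2 was at 0.35 ± 0.21 (adjusted p = 0.237 by edgeR). Its summed values did not overlap, at 4686 to 6277 CPM in LPS and 6479 to 8814 CPM in LPS+ET+KU. With equal weight per fraction they did, at 5305 to 6378 and 5967 to 8820 CPM. Pabpc1 measured 83.6 ± 24.7 CPM in LPS and 131 ± 40.2 CPM in LPS+ET+KU (SD, n = 4; log2 fold change 0.55 ± 0.25, adjusted p = 0.138). The 3 comparisons share gradients: LPS+ET serves in the first 2 and LPS in the first and the third.

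Along the gradient most members had their highest mean in LPS among the monosomes, in fraction 5 or 6, and several rose again in heavy polysomes. Eef1b2 in LPS peaked in fraction 5 at 9880 ± 2163 CPM (SD, n = 4) and fell to 669 ± 41.2 CPM in fraction 15, a 14.8-fold span. Gnb2l1 peaked in the same fraction at 7051 ± 1032 CPM and had its lowest value, 983 ± 116 CPM, in fraction 14, with a smaller rise to 1706 ± 373 CPM in fraction 12. Tpt1, the member with the shortest coding sequence (172 amino acids), had the steepest profile, 161 ± 80.6 CPM in fraction 5 against 5.9 ± 2.05 CPM in fraction 13, and its copy Tpt1-ps3 had the same shape at 9771 ± 2329 against 423 ± 46.3 CPM in the same fractions. Pabpc1, with 636 amino acids, also peaked in fraction 5, at 355 ± 107 CPM, and was lowest in fraction 12 at 18 ± 12.1 CPM, from where it rose to 109 ± 26.9 CPM in fraction 16. Pabpc4 rose over the same fractions from 24.2 ± 6.95 to 78.1 ± 34.5 CPM, against 102 ± 48.2 CPM at its peak in fraction 6. Eef1g peaked in fraction 6 at 694 ± 172 CPM and went from 149 ± 26.8 CPM in fraction 11 to 254 ± 56.9 CPM in fraction 16.

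In Eef2 and Npm1 the maximum in heavy polysomes came close to that among the monosomes, and in Eef1d it was the higher of them. Eef2 encodes the longest protein of the group (858 amino acids) and had 2 maxima in LPS: 11248 ± 2012 CPM in fraction 6, a minimum of 2640 ± 340 CPM in fraction 11, and 8793 ± 1807 CPM in fraction 15. The 4 LPS gradients ranged from 6742 to 11119 CPM in fraction 15 and from 2349 to 3033 CPM in fraction 11, so the rise in heavy polysomes was present in each of them. Npm1 had 1474 ± 405 CPM in fraction 5 and 1259 ± 230 CPM in fraction 12, and 2 of the 4 LPS gradients had their highest value in fraction 12. Eef1d had its highest mean in LPS in fraction 12, at 307 ± 85.5 CPM, while fractions 5 and 6, where the other members peaked, held 131 ± 33.4 and 135 ± 36.9 CPM. The LPS gradients of pools LUL15, LUL16 and LUL17 peaked in fraction 12 and that of LUL18 in fraction 4. The fraction 12 library of LUL17 held only 32306 counts.

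**Figure D2:**
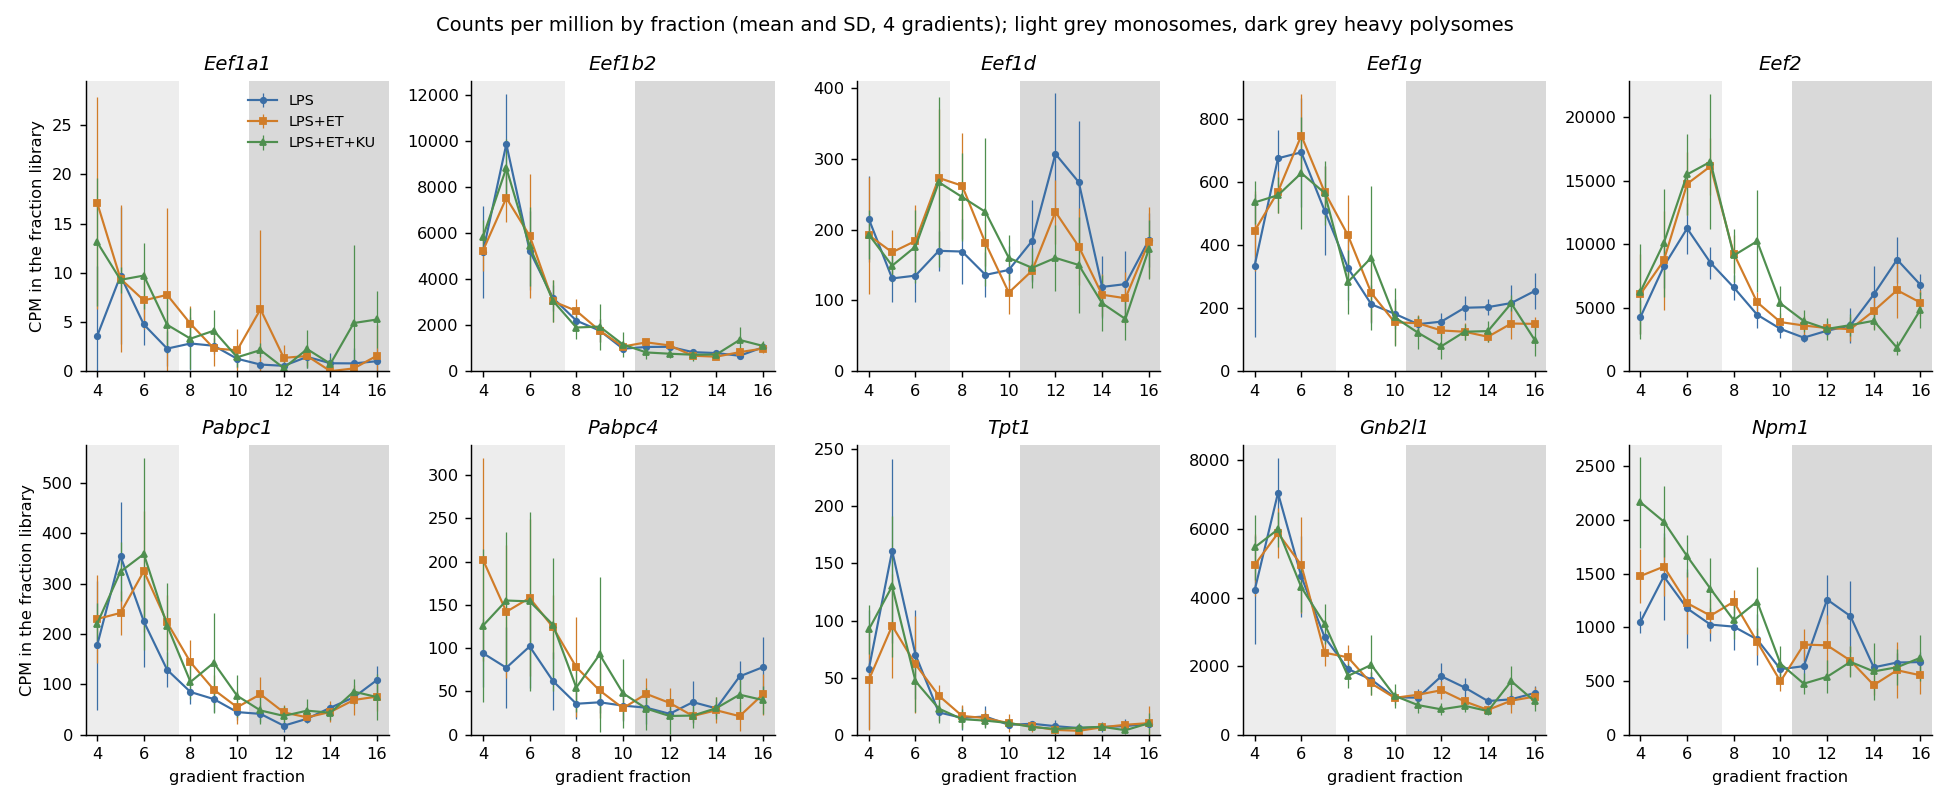
CPM of each member in each fraction library, mean and SD of 4 gradients, for the 3 groups; light grey marks monosomes and dark grey heavy polysomes, and the vertical scale differs between panels and starts at 0. In LPS all members except Eef1d have their highest mean in fraction 5 or 6, and rises in heavy polysomes are seen in Eef2 (fraction 15), Npm1 and Eef1d (fraction 12) and, smaller in CPM, in Gnb2l1, Eef1g, Pabpc1 and Pabpc4.

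The question of where each mRNA lies was tested as heavy polysomes against monosomes, on counts summed over the fractions of a class, with a term for each gradient (edgeR, 11034 genes). In LPS 9 of the 10 members were lower in heavy polysomes, against 22.9% of all genes (51.4% called in either direction), and the exception was Eef1d at a log2 ratio of 0.00 ± 0.16. The ratios of the called members ran from −3.72 ± 0.20 for Tpt1 and −3.15 ± 0.17 for Eef1b2 to −0.94 ± 0.17 for Npm1, all on the log2 scale with SE, and the largest adjusted p among them was 7.52e-06. The median of the 10 members was −2.35, and the median of all genes was 0.11. The 2 poly(A) binding proteins were at −2.83 ± 0.17 (Pabpc1) and −1.66 ± 0.18 (Pabpc4), and Gnb2l1 at −2.42 ± 0.16. With their copies added, Eef1a1 changed from −3.09 to −2.21 and Tpt1 from −3.72 to −3.44. The added Eef1a1 copies were not alike: Gm13456 (73433 counts) peaked in LPS in fraction 6, and Gm6548 (5800 counts) in fraction 14. Without the term for gradients Pabpc4 was no longer called (adjusted p = 0.0178), which left 8 members.

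The size of these ratios depends on the weights, scaling and test used. In the summed counts a deeply sequenced fraction weighs more. The alternative with equal weight per fraction also used limma on log2 mean CPM without TMM scaling, so the effect of the weights alone was not tested. There the ratio of Eef2 in LPS was −0.66 ± 0.19 in place of −1.73 ± 0.17. That of Npm1 was −0.49 ± 0.15 and that of Tpt1 −3.18 ± 0.28, with the same 9 members called. On that equal-weight scale Eef2 had 7807, 8081, 8680 and 7754 CPM in monosomes and 5764, 5834, 5131 and 3980 CPM in heavy polysomes of the LPS gradients of pools LUL15 to LUL18, and the 2 sets of values did not overlap. For Eef1b2 the monosome values were 5145 to 6883 CPM and the heavy polysome values 816 to 974 CPM.

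Genes of the same pathway were read from lists of related genes, beside shares over all genes of 28.5% higher and 22.9% lower in heavy polysomes. Of 73 tested mRNAs of cytosolic ribosomal proteins, 71 were lower in heavy polysomes in LPS, with a median log2 ratio of −3.07, and of 11 other mRNAs often listed as TOP, such as the initiation factor 3 subunits Eif3f (−2.93 ± 0.17) and Eif3h (−2.30 ± 0.15), 10 were lower, with a median of −1.41. The 15 other elongation, release and recycling factors, which are not counted as TOP mRNAs, lay the other way: 9 were higher and 2 lower, with a median of 0.74. Gspt1, the release factor eRF3a, was at 2.09 ± 0.21 and Eef2k, the kinase that inhibits eEF2, at 1.48 ± 0.35, while Dph3 and Dph1, which take part in making the diphthamide on eEF2, were at −2.82 ± 0.14 and −2.72 ± 0.52. Among 16 genes of poly(A) tail binding and deadenylation 8 were higher and 2 lower (median 0.33), with Eif4g1, the scaffold that PABP binds, at 2.16 ± 0.19. Of the 19 genes of mTORC1 and TOP mRNA control 6 were higher and 4 lower (median 0.39), shares near those over all genes, with Larp1 at 1.53 ± 0.36 and Mtor at 1.49 ± 0.18.

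**Figure D3:**
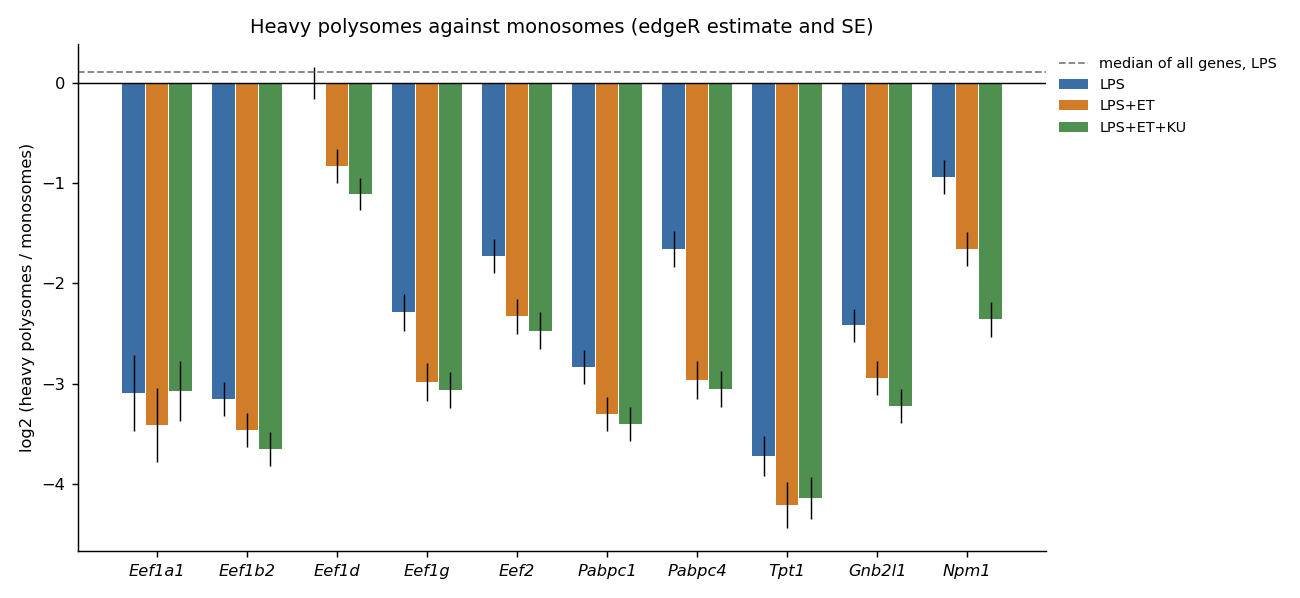
Log2 ratio of heavy polysomes to monosomes for each member and group; bars are the edgeR estimates on summed counts and error bars their SE, and the dashed line is the median of all genes in LPS (0.11). All bars except that of Eef1d in LPS lie below 0, and for every member this estimate is lower in LPS+ET than in LPS. With equal weight per fraction it was higher in LPS+ET for Eef1b2 (−2.69 in LPS, −2.56 in LPS+ET) and Tpt1 (−3.18 and −2.99), and lower for the other members. The edgeR test of this difference, added after the data had been seen, called Pabpc4 alone after etoposide.

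After etoposide all 10 members were lower in heavy polysomes than in monosomes, against 22.7% of all genes (49.6% in either direction), and with KU55933 all 10 were again, against 25.4% (54.4% in either direction). The median log2 ratio of the members was −2.97 without and −3.06 with the inhibitor, and that of all genes 0.09 each time. Since the libraries were scaled to each other, a shift shared by all mRNAs could not appear in these ratios. With the gradient that stood apart left out, the count after etoposide was also 10. Eef1d, which had no difference between the classes in LPS, was at −0.83 ± 0.17 in LPS+ET (adjusted p = 4.38e-05 by edgeR) and −1.11 ± 0.16 in LPS+ET+KU. With equal weight per fraction it was at −0.35 ± 0.16 in LPS+ET and no longer called (adjusted p = 0.0591), which left 9 members. In ribosomal protein mRNAs 71 of 73 were lower in both etoposide groups, with medians of −3.64 and −3.63, and all 11 other TOP mRNAs were lower, with medians of −2.13 and −2.08.

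A change between groups was measured as RiboLoad. Here it is the share of fractions 11 to 16 in the CPM of an mRNA over fractions 4 to 16. The study defined RiboLoad from reads. With every fraction scaled to the same total, the value is not the percentage of an mRNA's molecules. On counts as deposited, Eef1b2 in LPS was at 28.1% in place of 16.2%, and Eef1d at 64.3% in place of 51.5%. All genes had medians of 55.2, 53.9 and 54.7% in LPS, etoposide and inhibitor gradients (8000 genes with 100 or more counts per gradient). The 9 members with enough counts had medians of 28.8%, 21.4% and 19.8%. Because of the scaling, a shift shared by all mRNAs could not appear in this measure. On counts as deposited, where library depth plays a part too, the medians of all genes were 64.3, 61.5 and 56.4%. Those of the members were 38.8, 32.3 and 19%. Eef1d, at 51.5%, had 42.3% of all genes below it in LPS, and Tpt1, at 12.3%, had 1.05%. The test was limma on the logit of RiboLoad, and it called few genes in any comparison: 0.312% after etoposide, 0 with KU55933 against etoposide alone and 0.863% with KU55933 against LPS.

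For Eef2, RiboLoad was 42.8, 44.7, 37.1 and 34.6% in the LPS gradients of pools LUL15 to LUL18. The LPS+ET gradients had 35.3, 28.7, 26.4 and 27.2%, and those with KU55933 as well had 27.9, 18.3, 25.3 and 20.5%. The value was lower in LPS+ET than in LPS and lower again in LPS+ET+KU within each of the 4 pools, LPS and LPS+ET overlapped, and LPS and LPS+ET+KU did not. On the logit scale the difference from LPS was −0.67 ± 0.23 after etoposide (adjusted p = 0.128 by limma) and −1.16 ± 0.23 with KU55933 (adjusted p = 0.0153), neither past the threshold. Npm1 had 45.3, 46.2, 36.1 and 37.1% in LPS, 39.3, 36.1, 29.7 and 27.9% after etoposide, and 33, 24.8, 25.3 and 22.5% after both agents. Its order was the same within each pool, and its differences from LPS were −0.50 ± 0.24 (adjusted p = 0.261) and −0.97 ± 0.24 (adjusted p = 0.0376).

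Pabpc4 had 42.6, 43.1, 37.9 and 30.9% in LPS and 25.3, 26.8, 20.7 and 14% in LPS+ET, without overlap, and the difference within a pool was between −17.3 and −16.3 percentage points. Its logit difference was −1.21 ± 0.30 (adjusted p = 0.0459), the lowest adjusted p of a member after etoposide, and it belongs for the most part to the A-rich site shown above. Eef1g had 25 to 32.2% in LPS and 16.7 to 22.9% in LPS+ET, also without overlap (−0.65 ± 0.20, adjusted p = 0.0963). Eef1d was at 45.6 to 55.8% in LPS, 35.3 to 50% after etoposide and 30.3 to 42% after both agents, and its differences from LPS were −0.63 ± 0.24 (adjusted p = 0.156) and −0.90 ± 0.24 (adjusted p = 0.0474).

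In members with a steep profile the group means lay close together. For the 3 groups in turn, Eef1b2 had 16.2 ± 2.45, 17.2 ± 3.45 and 16.6 ± 3.45% (SD, n = 4), and its logit differences from LPS were 0.09 ± 0.24 and 0.02 ± 0.24. Tpt1 had 12.3 ± 1.44%, 14.1 ± 6.58% and 11.7 ± 5.88%, and Tpt1-ps3 had 13.2 ± 1.62%, 12.3 ± 4.53% and 10.6 ± 1.72%. Gnb2l1 was at 24.1 ± 2.94, 21.4 ± 3.02 and 19.2 ± 2.14%. Its within-pool differences were −3.2 to −2.27 percentage points between LPS+ET and LPS. Between the inhibitor and etoposide alone they were −3.76 to −1.26 points, again all of 1 sign. The adjusted p-values of limma, which had no term for pool, were 0.575 and 0.849, and with pool as a block 0.387 and 0.665. Pabpc1 was at 23.5 ± 2.1, 21.2 ± 4.45 and 19.3 ± 4.45%. Eef1a1 had too few counts for this test, and with its copies added its differences from LPS were −0.58 ± 0.27 and −0.77 ± 0.27 (adjusted p = 0.112 for the latter). No member was called between LPS+ET+KU and LPS+ET in this test, where Eef2 (−0.49 ± 0.23, adjusted p = 0.581) and Npm1 (−0.48 ± 0.24, adjusted p = 0.623) had the largest differences.

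**Figure D4:**
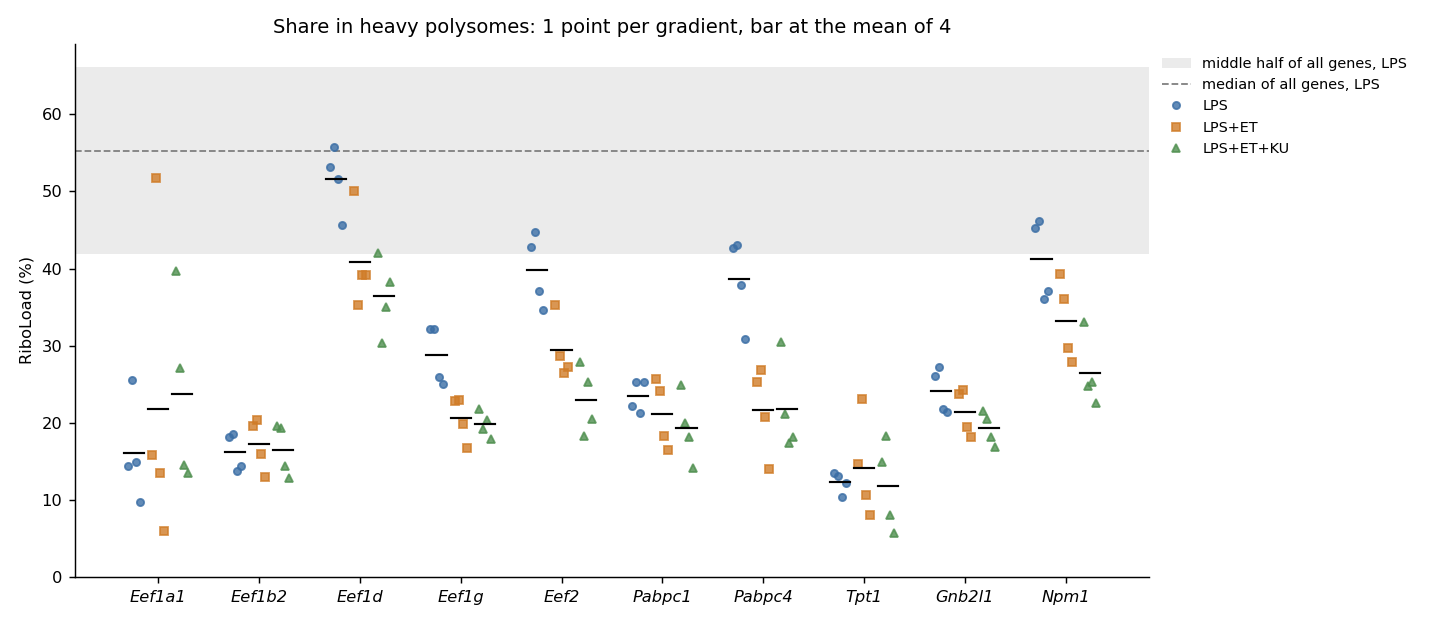
RiboLoad for each member in 4 gradients per group (points) with the mean (bar). It is the percentage of summed CPM in heavy polysomes, with every fraction scaled to the same total, and not a percentage of molecules. The grey band is the interquartile range and the dashed line the median of all genes in LPS (55.2%). All members lie below that median in their means, and the means of Eef1d, Eef1g, Eef2, Pabpc1, Pabpc4, Gnb2l1 and Npm1 are lower in both etoposide groups than in LPS, although no member passed the test of this measure.

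Thus no member was called in RiboLoad (limma, 9 tested) in any of the 3 comparisons, and 4, 0 and 5 of them had an unadjusted p under 0.05, after etoposide, with KU55933 against etoposide and with KU55933 against LPS, where all genes had 20.6, 8.60 and 20.9%. With pool as a block limma called no member either, where 0.425, 0 and 0.637% of all genes were called. The adjusted p of Pabpc4 was then 0.0141 after etoposide. With KU55933 against LPS it was 0.0121, and those of Eef2 and Npm1 were 0.0135 and 0.0136. The same question put to the summed counts, as a test of the heavy to monosome ratio between groups in edgeR with a term for each gradient, was added after the data had been seen. It called Pabpc4 after etoposide (log2 difference −1.30 ± 0.25, adjusted p = 0.000543) among 5.10% of all genes, no member with KU55933 against etoposide among 0.181%, and with KU55933 against LPS Npm1 (−1.42 ± 0.24, adjusted p = 7.71e-05), Pabpc4 (−1.38 ± 0.25, adjusted p = 0.000171) and Eef1d (−1.12 ± 0.23, adjusted p = 0.000893) among 5.38%. Eef2 was at −0.74 ± 0.24 (adjusted p = 0.0332) and Gnb2l1 at −0.80 ± 0.22 (adjusted p = 0.0130) in that last comparison.

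The whole profile over 13 fractions was compared with a model of fraction, treatment and their interaction against fraction alone (edgeR), which treats the libraries of a gradient as independent and tests level and shape together. Between LPS+ET and LPS no member was called by edgeR, against 31% of all genes. At an unadjusted p under 0.05 there were 3 members, Npm1, Pabpc4 and Eef1d, and DESeq2 called 1, Eef2. With pool as a block Pabpc4 was called (adjusted p = 4.12e-07), and without the LPS gradient of pool LUL16 there were 4 called: Eef2, Eef1g, Npm1 and Gnb2l1.

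Between LPS+ET+KU and LPS+ET 2 of the 10 members were called, Eef2 (adjusted p = 0.00111) and Npm1 (adjusted p = 0.00497), against 8.01% of all genes, and with pool as a block the same 2 members among 18.3% of all genes. By the ratio of the means, Eef2 differed most in fraction 15: LPS+ET gradients had 4287 to 9024 CPM there and LPS+ET+KU gradients 1278 to 2565 CPM, with means of 6380 ± 2169 and 1837 ± 542 CPM (SD, n = 4), while in fraction 7 the means were 16146 ± 2225 and 16501 ± 5335 CPM. In fraction 9 the order was the opposite, with 5431 ± 815 CPM without and 10239 ± 4026 CPM with the inhibitor. Fraction 15 was then the lowest fraction of Eef2, where in LPS it held its second maximum. In the same fraction of LPS+ET+KU Eef1b2 (1358 ± 559 CPM), Eef1g (215 ± 25.4 CPM), Pabpc1 (85.8 ± 24.9 CPM) and Gnb2l1 (1563 ± 438 CPM) had the highest of their heavy polysome means. The 4 libraries of fraction 15 in LPS+ET+KU held 60143 to 593423 counts, against 80915 to 896258 in LPS+ET, and whether the depth or content of these libraries plays a part was not tested. For Npm1 the difference lay at the top and in the middle: in fraction 4 LPS+ET had 1277 to 1840 CPM and LPS+ET+KU 1684 to 2714 CPM, and in fraction 11 the values were 701 to 1024 and 392 to 574 CPM, without overlap in the latter.

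Neither call was independent of single gradients. Both members were called when the gradient that stood apart was left out. Neither was called when the etoposide gradient of pool LUL15 or LUL18, or the inhibitor gradient of pool LUL18, was left out. Leaving out the LPS+ET gradient of pool LUL17 or the LPS+ET+KU gradient of pool LUL16 or LUL17 left Eef2, and leaving out the LPS+ET+KU gradient of pool LUL15 left Npm1.

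Of 19 genes of mTORC1 and TOP mRNA control, 2 changed in level on ribosomes after etoposide, a share below the 12.7% of all genes called by edgeR. Both were higher: Sesn2, which inhibits mTORC1 through GATOR2, with log2 fold change 2.86 ± 0.31 (adjusted p = 2.49e-05), and Ddit4, which acts on TSC2, at 1.76 ± 0.31 (adjusted p = 0.00117). With KU55933, against LPS, where 10.7% of all genes were called, 3 were higher (Sesn2 at 2.10 ± 0.30, Ddit4 at 1.74 ± 0.31 and Sesn3 at 0.85 ± 0.20) and 1 lower, Rptor at −1.03 ± 0.24. Among 17 genes of poly(A) tail binding and deadenylation 2 were higher after etoposide, Tob1 at 2.74 ± 0.33 and Btg2 at 1.45 ± 0.31, both of which recruit the deadenylase CCR4-NOT, and 3 lower, with the deadenylase subunit Cnot6l at −1.37 ± 0.24 and the nuclear poly(A) binding protein Pabpn1 at −1.30 ± 0.25. Of 75 ribosomal protein genes 1 was called, Rps27l at 1.17 ± 0.19, a paralogue that is a known target of p53. Among the 12 other TOP mRNAs edgeR called 0 in that comparison (1 at an unadjusted p under 0.05, 0 by DESeq2), and among the 15 other elongation, release and recycling factors 0 (3 unadjusted, 2 by DESeq2). The medians of the 5 lists lay between −0.26 and 0.14.

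The genes whose fraction pattern was most like that of the members were sought over all libraries of fractions 4 to 16, as the correlation of log2(CPM + 1) with the mean of the standardised members among 7991 genes with enough counts. The 5 highest were Eif3h (r = 0.916), Gas5 (0.915), Rplp0 (0.912), Eif3f (0.912) and Rpl14 (0.911). Gas5 is a non-coding host gene of small nucleolar RNAs whose transcript begins with a TOP tract. Of the 50 genes most like the members, 17 encoded ribosomal proteins, against 58 of all 8000 genes with enough counts. Among the members themselves, Eef1g and Gnb2l1 followed the mean of the others best (r = 0.915 each) and Eef1d least (r = 0.281), with Eef1a1 (0.638) and Eef2 (0.67) between. These are descriptions over libraries that share gradients, pools and depth.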

How the data were processed

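Libraries of mRNA 3′ ends were made by the authors from fractions of 12 sucrose gradients. The deposited values are raw counts per gene, summed by the authors over poly(A) sites, for which PCR duplicates were collapsed by random bases and reads were aligned to GRCm38 with Ensembl annotation; the submitters' processing notes name TopHat2 2.0.12, TopHat, HTSeq and DESeq2 1.6.3. Of 157 columns, 79 matched a single labelled sample and 78, of pools LUL16 and LUL18, matched a treatment and fraction only. The listed site positions were converted to 1-based coordinates.

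The members and gene lists were chosen with earlier results of these data known. Each member is named, and of the other lists at most 4 called genes with the largest log2 change per comparison. Levels (counts summed per gradient), heavy polysomes against monosomes (counts summed per class, with a gradient term) and profiles (104 libraries per comparison) were tested with edgeR 4.0.16, quasi-likelihood, TMM scaling and its default filter. RiboLoad (fractions scaled to CPM, offset of 0.5 counts, 100 or more counts per gradient) was tested with limma 3.58.1. Calls were made at a Benjamini-Hochberg adjusted p under 0.01, over all genes tested. R 4.3.3 and DESeq2 1.42.0 were used; scripts were tested on simulated data. Alternatives were DESeq2, other scalings, filters and weights, a pool block, copies summed (found with blastn 2.17.0 at 90% identity over 200 bases or more) and each gradient left out. The fits with equal weight per fraction used limma on log2 mean CPM without TMM scaling.

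Whether pools pair the gradients was checked by correlating deviations from the group means: all 12 pairs of 1 pool had r of 0.358 to 0.896, and 36 pairs of different pools −0.673 to 0.406. The pool is a tag in the column names, which do not say what it stands for. Where columns match a single labelled sample, the tag goes with the replicate number. The study calls the 4 gradients of a group biological replicates; the labels do not say which mice they came from. Libraries held 14724 to 4170688 counts, and a count of 0 allows up to 3 counts, for counting error only.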

Additional observations from a re-analysis of the deposited data

Results flagged for a closer look

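In the level of Gnb2l1, the LPS gradient of pool LUL17 lay apart from the other 3, at 2115 CPM against 1847 to 1875 CPM; its gap to the nearest was 0.896 of the whole range, past Dixon's 95% limit. It was the only such value in 60 groups of 4 gradients (1.67%), and chance gives about 1 in 20.

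The difference between groups in the heavy to monosome ratio, tested in edgeR after the data had been seen, was past the threshold for Pabpc4 after etoposide (log2 difference −1.30, adjusted p = 0.000543). With KU55933 and etoposide against LPS it was past the threshold for Npm1 (−1.42, adjusted p = 7.71e-05), Pabpc4 (−1.38, adjusted p = 0.000171) and Eef1d (−1.12, adjusted p = 0.000893). In each pool the RiboLoad of these members was lower than in LPS, and the test of RiboLoad in limma called none of them.

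A library of fraction 17 from 1 LPS gradient, which entered no comparison, held 777 counts. Of these, 5 were Eef1b2 and 5 were Eef2, above the 3 that a count of 0 allows.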

How the results depend on the processing

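No member was called in the level comparisons under any alternative run, and 123 of the 141 alternative counts of members called stayed within 1.5 times the main count. The counts that moved were in RiboLoad and in the profile. For RiboLoad, the edgeR ratio test added after seeing the data gave 1 member after etoposide and 3 with KU55933 against LPS. For the profile after etoposide, DESeq2 gave 1 (Eef2), and a term per gradient, no filter and the pool block 1 each (Pabpc4); leaving out a gradient gave 0 to 4. For the profile with KU55933 against etoposide, the interaction alone gave 1, RLE scaling 1 and no filter 0, and leaving out a gradient 0 to 2; the pool block kept 2. The cause was not tested. The block changed no other call of a member. Without the gradient term Pabpc4 in LPS lost its call for heavy polysomes against monosomes (−1.69), and with equal weight Eef1d in LPS+ET did (−0.35).

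Counts over all genes moved more. Called in level after etoposide were 1618 genes, and 3403 with the pool block; with KU55933 against etoposide 58, and 811 with the block, 412 by DESeq2, 21 with equal weight and 0 with only the 8 gradients compared; against LPS 1361, 3589 with the block and 2263 by DESeq2. In RiboLoad 25 and 69 genes were called against LPS, 5 and 0 with a minimum of 20 counts, and 0 in both with counts as deposited. Leaving out a gradient gave 0 (without the LPS+ET gradient of LUL18) to 20 and 0 to 15 genes (all 8 omissions moved the latter by over 1.5 times), and 10 and 0 genes were called after etoposide and with KU55933 against etoposide without the LPS+ET gradient of LUL16. For levels it gave 19 to 172 genes with KU55933 against etoposide, the highest without that gradient, and 755 to 1708 against LPS; for the profile with KU55933 against etoposide 406 to 1173, the highest again without that gradient. In the profile 3208 and 839 genes were called, 142 and 110 by the interaction alone, 593 and 380 with a term per gradient, and 1919 with the block for the second. Heavy against monosomes called 5667 genes in LPS and 6008 with KU55933, and 3679 and 3745 without the gradient term.

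Of 1071 values of single members, 56 changed sign. In levels, these were Eef1a1 after etoposide with copies summed (−0.01) and, with equal weight per fraction, Eef1d after etoposide (0.02), Eef1g (−0.06) and Pabpc4 (−0.13) with KU55933 against etoposide, and Eef1b2 (−0.02), Tpt1 (−0.11) and Gnb2l1 (−0.06) with KU55933 against LPS. Npm1 in that last comparison was 0.00 with RLE or no filter and −0.02 with DESeq2. Heavy against monosomes in LPS, Eef1d was −0.11 with RLE and −0.01 without the gradient term. In RiboLoad after etoposide, counts as deposited, without scaling fractions, gave −0.29 for Eef1b2 and −0.43 for Tpt1, the ratio test −0.31 and −0.49, and copies summed −0.16 for Tpt1; with KU55933 against etoposide, Pabpc4 was −0.91 as deposited and −0.09 in the ratio test, and Tpt1 0.07 in the latter; against LPS, Eef1b2 was −1.25 and −0.49.

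Leaving out 1 gradient gave level changes after etoposide of −0.16 to 0.14 (Eef2), −0.04 to 0.27 (Pabpc1) and −0.20 to 0.48 (Pabpc4), with KU55933 against etoposide of −0.05 to 0.70 (Pabpc4), and against LPS of −0.22 to 0.06 (Eef1g), −0.01 to 0.56 (Tpt1), −0.03 to 0.12 (Gnb2l1) and −0.08 to 0.09 (Npm1). Eef1d in LPS, heavy against monosomes, ranged from −0.17 to 0.14. RiboLoad ranged after etoposide from −0.02 to 0.24 (Eef1b2) and −0.19 to 0.40 (Tpt1), with KU55933 against etoposide from −0.22 to 0.07 (Eef1b2), −0.17 to 0.02 (Eef1g) and −0.23 to 0.16 (Pabpc4), and against LPS from −0.09 to 0.16 (Eef1b2) and −0.51 to 0.12 (Tpt1).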
